A study of Homo sapiens with 5 samples.

Results

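The G2/M and mitosis genes are 50 genes that drive a cell from late interphase through chromosome segregation and division. They were taken by symbol from the gene tables, which hold 43714 gene rows, and all 50 were present and passed the filter on low counts that left 15859 genes for testing. Poly-A RNA had been sequenced from Rh41, an established human cell line of fusion-positive alveolar rhabdomyosarcoma (FP-RMS), a childhood tumour with features of immature skeletal muscle. The scrambled control siRNA is represented by 2 libraries, numbered 1 and 3, and the H3F3A siRNA by 3, numbered 1 to 3. Lipofectamine RNAiMAX carried either siRNA into the cells, and RNA was taken after 48 hours. H3F3A is one of the genes for the histone variant H3.3, which is placed in chromatin outside DNA replication. The comparison asks which transcripts differ when this gene is silenced, in 1 line and without a statement in the labels that the replicates were separate cultures. The p-values rest on the spread among these libraries only, and that spread could be technical.

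Entry into mitosis is set by CDK1 bound to cyclin A or cyclin B. Inhibitory phosphates on CDK1 are placed by WEE1 and PKMYT1 and removed by CDC25 phosphatases. Polo-like and Aurora kinases then build the spindle, kinetochores attach chromosomes to it, and the spindle checkpoint holds back the anaphase-promoting complex until all are attached. Most of these genes are transcribed in a wave that peaks in G2 and mitosis, under the MuvB complex with B-MYB and FOXM1, and are repressed in resting cells by the DREAM complex. MuvB binds the cell cycle genes homology region (CHR), and the factor NF-Y binds CCAAT boxes upstream of it. In bulk RNA a change in the number of cells in G2 and mitosis and a change in RNA per cell cannot be told apart.

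The promoters of 4 members are shown because they carry both elements and come from 4 roles: a cyclin, a kinase, the anaphase activator and a spindle motor. Each line gives the 100 bases before the gene's start on the plus strand from RefSeq (GRCh38.p14), 5′ to 3′. Capitals mark TTTGAA, the common form of the CHR, and CCAAT, or their reverse complements TTCAAA and ATTGG.
CCNB2, cyclin B2, chr15:59105046-59105145: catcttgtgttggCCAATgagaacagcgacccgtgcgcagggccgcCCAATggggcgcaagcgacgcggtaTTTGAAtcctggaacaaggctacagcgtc
PLK1, polo-like kinase, chr16:23678789-23678888: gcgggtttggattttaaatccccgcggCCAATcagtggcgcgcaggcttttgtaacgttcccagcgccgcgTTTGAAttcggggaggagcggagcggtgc
CDC20, activator of the anaphase-promoting complex, chr1:43358881-43358980: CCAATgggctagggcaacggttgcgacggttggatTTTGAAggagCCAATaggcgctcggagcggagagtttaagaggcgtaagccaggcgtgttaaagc
KIF11, the kinesin that pushes spindle poles apart, chr10:92593030-92593129: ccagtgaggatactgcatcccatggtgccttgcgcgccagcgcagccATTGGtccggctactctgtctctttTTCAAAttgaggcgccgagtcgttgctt
In CCNB2, PLK1 and KIF11 the CHR match starts 29, 29 and 28 bases before the gene's start, with a CCAAT box 54, 73 and 53 bases before it. CDC20 has a CHR match 65 bases before the start, between CCAAT boxes that start 100 and 55 bases before it. Another CDC20 match, as TTCAAA, starts 178 bases before the start, outside the stretch shown.

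Promoter sequences of 300 bases (250 before to 50 after the start) were matched for 43 of the 50 members, and not for AURKA, BIRC5, BUB3, FOXM1, TPX2, TTK and UBE2C. TTTGAA on either strand was found in 29 of 43 member promoters (67.4%), against 10.1% of the 11677 matched promoters of genes tested and 15.4% of all 27305 promoters. CCAAT on either strand was found in 33 member promoters (76.7%), against 36.5% of those of genes tested and 35.7% of all. Both were found in 24 (55.8%), against 4.21% of those of genes tested and 6.08% of all. A TTTGAA match starting in the last 60 bases before the start was found in 17 member promoters (39.5%), against 1.72% of those of genes tested and 2.99% of all. Promoters were also matched for 105 of 124 other genes of the mitotic pathway (the further mitotic genes). Among these, TTTGAA was found in 35.2%, CCAAT in 51.4%, both in 19.05%, and TTTGAA in the last 60 bases in 12.4%. High shares are thus not particular to the members. Median promoter GC was 61.3% for members, 63.7% for further mitotic genes, 65% for genes tested and 58.3% for all promoters. The shares were not adjusted for it. Neither motif contains the other, and a match of each can share at most 1 end base with a match of the other. A match describes the letters only, not a bound site. The 29 members with a TTTGAA match had a median log2 fold change of -0.0064 after H3F3A siRNA, and the 14 without one of -0.069. With the correction for GC content described below, these medians were -0.080 and -0.086. No test was made between them.

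**Figure D1:**
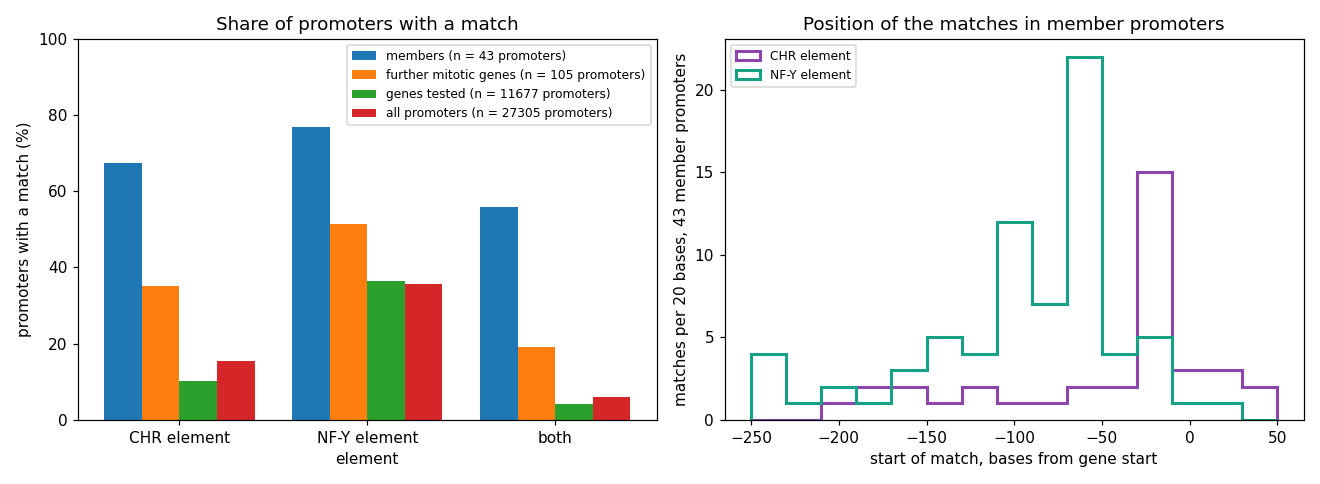
Left, the share of 300-base promoters (percent) with a CHR match, an NF-Y element match or both, for the members, the further mitotic genes, the genes tested and all promoters; right, the number of matches per 20 bases of the 43 member promoters against the distance of the match from the gene's start (bases). The CHR was found in 67.4% of member promoters against 35.2% of those of the further mitotic genes and 10.1% of those of genes tested.

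Libraries held 28493573 to 30705963 counts assigned to genes. H3F3A (row H3-3A) stood at 294 and 269 CPM (counts relative to library size, which edgeR's TMM method had scaled) in the scrambled libraries and at 9.38, 10.5 and 8.54 CPM after H3F3A siRNA, so 3.36% of its level was left (log2 fold change -4.89, SE 0.092, adjusted p = 9.04e-21 by edgeR's quasi-likelihood test) and every library matched its label. All 10 myogenic and rhabdomyosarcoma markers were above 1 CPM in every library (CPM of markers are per unscaled library size), with a summed level of 5210 to 5927 CPM in scrambled and 4637 to 4718 CPM in H3F3A siRNA libraries. These markers did not move together. FGFR4, MYOD1, DES and CHRNA1 were lower in every H3F3A siRNA library than in either scrambled one. FGFR4 stood at 2098 and 1778 CPM in scrambled libraries against 1410, 1424 and 1437 CPM. TFAP2B was higher, at 54.9 and 56.3 against 80.7, 83 and 78.9 CPM. The groups overlapped for MYOG, MYMK, NOS1, OLIG2 and PAX3. The part of the shift in the sum in the members' values was not tested. Of the markers of other cells, PTPRC, EPCAM, CDH1 and KDR were at 0 or under 1 CPM in every library. Of 7 epithelial, 6 endothelial and 6 immune markers, 2, 2 and 1 reached 1 CPM in every library. Their summed levels were 9.1 to 10.7, 5.3 to 5.61 and 4.06 to 4.48 CPM in scrambled and 8.81 to 9.65, 4.46 to 4.84 and 4.28 to 4.93 CPM in H3F3A siRNA libraries. Of 8 fibroblast markers 4 were above 1 CPM, mainly COL3A1, and DCN, LUM, FAP and THY1 were under 1 CPM. The fibroblast sum was 1220 to 1291 CPM in scrambled and 1250 to 1325 CPM in H3F3A siRNA libraries. Scrambled replicate 1 stood apart by GC content. Its log2 CPM, set against the average library, had a slope of 0.144 for every 10 percentage points of transcript GC, where scrambled replicate 3 had -0.0064 and the H3F3A siRNA libraries -0.059 to -0.039. Values are therefore given without and with a correction that removes each library's trend over GC.

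The mitotic programme was strongly expressed in all 5 libraries, and no member passed the test after H3F3A siRNA. Of 50 members 0 were lower and 0 higher at an adjusted p under 0.05 (edgeR quasi-likelihood test), where 2.69% of all genes tested were called lower and 0.504% higher. DESeq2 also called 0. At an unadjusted p under 0.05, 3 members were lower and 0 higher by edgeR, which is 6% and 0% of members against 10.9% and 5.91% of all genes. DESeq2 likewise gave 3 lower and 0 higher. The median log2 fold change of the members was -0.020, with 29 below 0, beside a median of 0.0073 over all genes tested with 48.6% below 0.

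Without GC correction, the intervals bounded these differences as follows. Standard errors of log2 fold changes ran from 0.073 to 0.106. The 95% interval lay within 0.3 log2 of 0 (1.23-fold) for 42 of 50 members. The farthest lower bound was -0.39 for CDC20 (1.31-fold lower), and the farthest upper bound was 0.33 for TTK (1.26-fold higher). With GC correction the farthest bounds were -0.42 for SGO1 and 0.20 for TTK. The interval then covered 0 for 39 members, against 47 without the correction. For comparison, the median absolute log2 fold change was 0.075 among members, 0.125 over all genes tested and 0.40 among the genes called. The 2 scrambled libraries differed from each other by more than the fitted group difference in 30 of 50 members. Single libraries vary more than group means do, and the share over all genes was not counted, so this count is a description only. Summed over members, the level was 8508 and 8640 CPM in scrambled libraries and 8445, 8356 and 8394 CPM after H3F3A siRNA. The groups of these sums do not overlap, but the gap between them is smaller than that between the scrambled libraries.

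Between genes, levels were compared per kilobase of the longest coding transcript. UBE2C, the ubiquitin-conjugating enzyme of the anaphase-promoting complex, was highest at 479 CPM per kb in scrambled libraries, followed by CDC20 at 210, CKS1B at 207 and CKS2 at 158 CPM per kb. TOP2A, TPX2, PLK1 and CCNB1 lay close together, between 119 and 125 CPM per kb. The lowest were TTK at 11.9, SGO1 at 7.16 and BORA at 3.82 CPM per kb. After H3F3A siRNA the same 4 genes led, with UBE2C at 456 CPM per kb. BORA at 3.89 and SGO1 at 6.53 CPM per kb were again lowest, and CDC25C at 12.4 CPM per kb lay next, below TTK at 13.4. Across the 50 genes, which are not independent and share their lengths, the log2 levels of the groups had a Pearson correlation of 0.998. Reads that overlap another gene are dropped from unstranded counts. SGO1, BORA, PRC1, FOXM1, HMMR, TACC3 and CCNA2 kept 51.1%, 54.6%, 67.7%, 70.1%, 71.8%, 78.5% and 80% of the sum of their stranded counts, so their levels are too low by an unknown part.

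**Figure D2:**
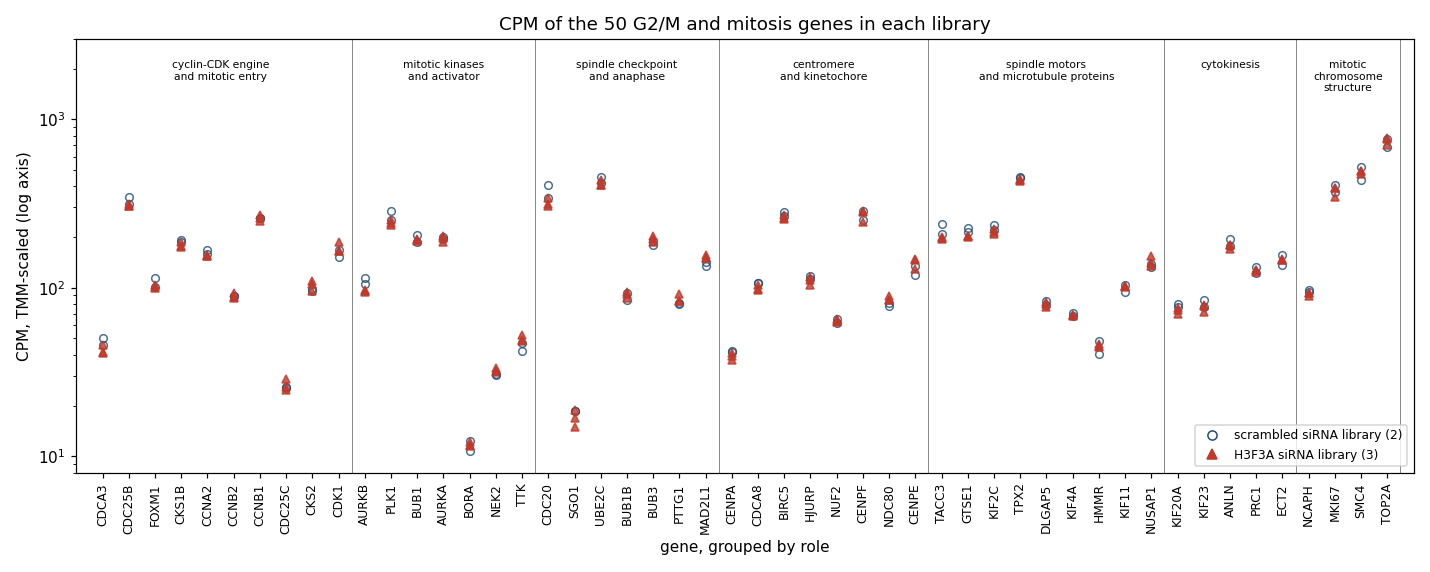
CPM of each of the 50 members (log axis, TMM-scaled) in the 2 scrambled libraries (open circles) and the 3 H3F3A siRNA libraries (triangles), grouped by role. Symbols of the groups lie on or beside each other for each gene, from BORA near 11 CPM to TOP2A between 684 and 773 CPM.

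Among the 10 genes of the cyclin-CDK engine and mitotic entry, none was called in either direction, 6 lay below 0 and the median log2 fold change was -0.039. CCNB1, which encodes cyclin B1, the activating partner of CDK1, stood at 258 and 258 CPM in scrambled libraries and at 269, 250 and 260 CPM after H3F3A siRNA. The H3F3A siRNA libraries bracket the scrambled ones, and the interval of the log2 fold change was -0.14 to 0.16. CDK1, the mitotic kinase itself, stood at 152 and 168 CPM against 186, 166 and 164 CPM, with the largest positive difference of this role (log2 ratio 0.11, SE 0.080, adjusted p = 0.531). Its groups overlap, and with GC correction it was -0.013. CDCA3, an F-box-like protein that promotes the degradation of WEE1, had the largest negative difference at 50.5 and 45.5 CPM against 45.9, 41.7 and 40.9 CPM (log2 fold change -0.16, SE 0.083, adjusted p = 0.327). CDC25B, the phosphatase that first activates CDK1 and the most abundant gene of the role by CPM, stood at 346 and 315 CPM against 316, 304 and 307 CPM, and its log2 fold change of -0.097 became 0.019 with GC correction. FOXM1, the transcription factor of the G2/M wave, stood at 114 and 101 CPM against 101, 104 and 99.7 CPM (log2 fold change -0.086, and -0.026 with GC correction). Scrambled replicate 1 was the highest library for CDCA3, CDC25B and FOXM1. The groups did not overlap for CCNA2 and CKS1B, which were lower after H3F3A siRNA by log2 fold changes of -0.072 and -0.075 without passing the test. CCNB2, CDC25C and CKS2 had log2 fold changes of -0.0064, 0.047 and 0.096.

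The 6 mitotic kinases and the activator BORA, 7 genes in all, lay on both sides of 0. None was called, 4 lay below 0, and the median was -0.0031. AURKB, the kinase of the chromosomal passenger complex that corrects faulty attachments, stood at 114 and 105 CPM in scrambled libraries and at 94.95, 96.1 and 97.2 CPM after H3F3A siRNA. The groups do not overlap, and the log2 fold change was -0.19 (SE 0.075, adjusted p = 0.192). PLK1, which drives centrosome maturation and mitotic entry, stood at 285 and 252 CPM against 251, 237 and 241 CPM (log2 fold change -0.15, SE 0.077, adjusted p = 0.351). One H3F3A siRNA library came close to scrambled replicate 3, and the distance to replicate 1 was larger. AURKA, the spindle pole kinase, stood at 199 and 195 CPM against 204, 188 and 198 CPM, with a log2 fold change of -0.0031. BUB1, the kinetochore kinase that recruits shugoshin, stood at 187 and 207 CPM against 191, 194 and 192 CPM, also with overlapping groups. TTK, the kinase that starts checkpoint signalling, had the largest positive difference of all members at 41.9 and 47.05 CPM against 52.2, 48.5 and 48.7 CPM (log2 fold change 0.16, SE 0.082, adjusted p = 0.325). Its groups do not overlap, and with GC correction it was 0.070. NEK2, the centrosome-splitting kinase, and BORA, which helps Aurora A activate PLK1, had log2 fold changes of 0.076 and 0.026.

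In the spindle checkpoint and anaphase group of 7, none was called, 3 lay below 0 and the median was 0.035. CDC20 had the largest negative difference of all members. It stood at 406 and 341 CPM in scrambled libraries and at 340, 307 and 313 CPM after H3F3A siRNA (log2 fold change -0.22, SE 0.083, unadjusted p = 0.013, adjusted p = 0.152). The groups do not overlap, but scrambled replicate 3 lay just above the highest H3F3A siRNA library and scrambled replicate 1 far above both. GC correction brought the difference to -0.13 (adjusted p = 0.385), and leaving out scrambled replicate 1 to -0.096. MAD2L1, the checkpoint protein that holds CDC20 inactive, lay on the other side, at 134 and 142 CPM against 155, 149 and 149 CPM (log2 fold change 0.13, SE 0.074, adjusted p = 0.382), and its groups do not overlap. With GC correction its log2 fold change was 0.028. UBE2C stood at 455 and 420 CPM against 438, 406 and 406 CPM with overlapping groups. The checkpoint scaffold BUB3, the checkpoint protein BUB1B and securin (PTTG1) had log2 fold changes of 0.085, 0.035 and 0.095, and shugoshin (SGO1) of -0.13.

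**Figure D3:**
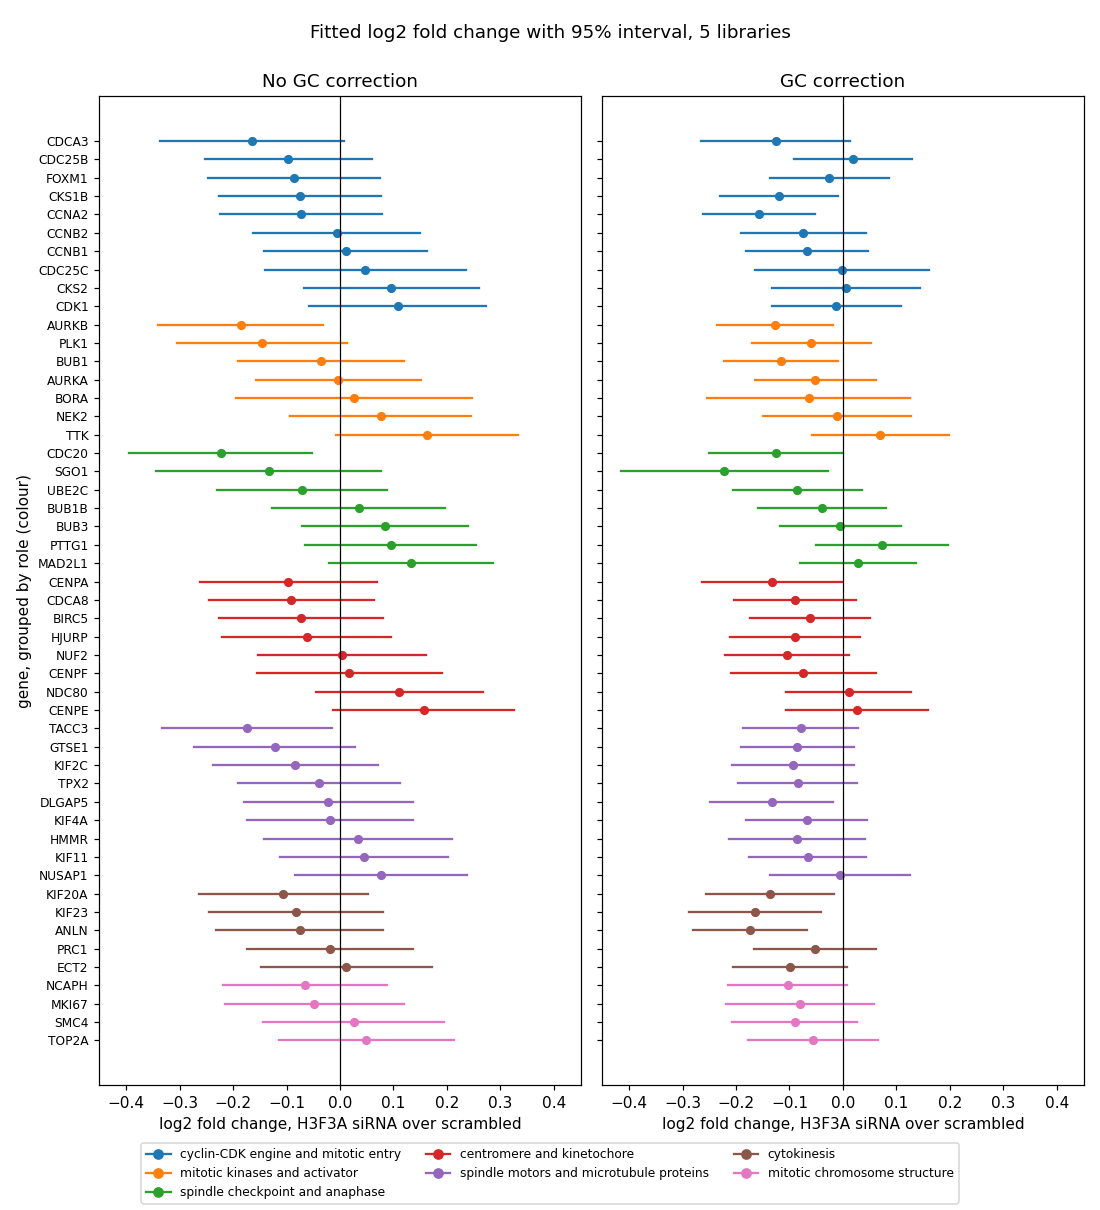
Fitted log2 fold change (H3F3A siRNA over scrambled, 5 libraries) of each member with its 95% interval, without (left) and with GC correction (right), coloured by role. The points run from -0.22 to 0.16 on the left and from -0.22 to 0.073 on the right, where 43 of 50 lie below 0.

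The 8 centromere and kinetochore genes were split evenly, with 4 below 0, none called and a median of -0.029. CENPA, the centromeric histone H3 variant that marks where kinetochores form, stood at 41.6 and 42.2 CPM in scrambled libraries and at 40.7, 37.4 and 39.4 CPM after H3F3A siRNA. The groups do not overlap, and the log2 fold change was -0.097 (SE 0.080, adjusted p = 0.583). HJURP, the chaperone that loads CENPA, had a log2 fold change of -0.062, with overlapping groups. NDC80, which grips microtubules at the outer kinetochore, stood at 78.2 and 81 CPM against 89.4, 84.5 and 84.1 CPM (log2 fold change 0.11, SE 0.075, adjusted p = 0.487). Its groups do not overlap, but its partner NUF2 had a log2 fold change of 0.0039 with overlapping groups. CENPE, a kinetochore kinesin, stood at 119 and 134 CPM against 129, 146 and 147 CPM (log2 fold change 0.16, SE 0.082, adjusted p = 0.340), and with GC correction at a log2 fold change of 0.027. CENPF, a large protein of the outer kinetochore and the most abundant of the role by mean CPM over all 5 libraries, stood at 251 and 286 CPM against 247, 287 and 281 CPM. The passenger complex members CDCA8 (borealin) and BIRC5 (survivin) had log2 fold changes of -0.091 and -0.073.

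Among 9 spindle motors and microtubule proteins none was called, 6 lay below 0 and the median was -0.022. TACC3, which stabilises kinetochore fibres, stood at 237 and 207 CPM in scrambled libraries and at 200, 197 and 195 CPM after H3F3A siRNA (log2 fold change -0.17, SE 0.077, unadjusted p = 0.034, adjusted p = 0.246). The groups do not overlap, scrambled replicate 1 was the high library, and with GC correction it was -0.079. TPX2, which activates Aurora A on the spindle and was the most abundant of the role by CPM, stood at 451 and 447 CPM against 431, 437 and 444 CPM. These groups do not overlap although the log2 fold change was only -0.039. KIF11 stood at 94.1 and 104 CPM against 100, 103 and 103 CPM, so the H3F3A siRNA libraries lay between the scrambled ones. NUSAP1, which bundles spindle microtubules, had the largest positive difference of the role at 138 and 133 CPM against 153, 140 and 135 CPM (log2 fold change 0.077). KIF2C, KIF4A, HMMR, DLGAP5 and GTSE1 had log2 fold changes between -0.12 (GTSE1) and 0.034 (HMMR).

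The 5 cytokinesis genes had the lowest median of the roles at -0.075, with 4 below 0 and none called. Their mean log2 CPM, as a distance from the average library, was -0.035 in scrambled replicate 1 and 0.098 in scrambled replicate 3. In the H3F3A siRNA libraries it was 0.00091, -0.032 and -0.033, so scrambled replicate 1 lay below all of these. KIF20A, a kinesin of the midzone, did not overlap between groups and stood at 76.4 and 80.3 CPM in scrambled libraries and at 73.3, 75.6 and 69.4 CPM after H3F3A siRNA (log2 fold change -0.11, SE 0.076, adjusted p = 0.514). ANLN, the anillin scaffold of the contractile ring, stood at 176 and 195 CPM against 179, 178 and 171 CPM, with overlapping groups and a log2 fold change of -0.075 (adjusted p = 0.664). With GC correction ANLN came closest of all members to the threshold (log2 fold change -0.17, interval -0.28 to -0.068, adjusted p = 0.0925). ECT2, the exchange factor that switches on RHOA for the ring, stood at 136 and 156 CPM against 149, 146 and 146 CPM (log2 fold change 0.012). KIF23 and PRC1, which build the midzone, had log2 fold changes of -0.083 and -0.019.

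Mitotic chromosome structure was represented by 4 genes, of which 2 lay below 0 none was called and the median was -0.011. TOP2A, the topoisomerase that untangles sister chromatids, was the most abundant member by CPM at 684 and 761 CPM in scrambled libraries and 707, 773 and 761 CPM after H3F3A siRNA. MKI67, which encodes the proliferation marker Ki-67, stood at 368 and 408 CPM against 344, 391 and 391 CPM. Both sets of libraries overlap. Scrambled replicate 1 and H3F3A siRNA replicate 1 were the low libraries of their groups for TOP2A, MKI67, SMC4 and CENPF. The condensin subunits NCAPH and SMC4 had log2 fold changes of -0.065 and 0.025, and for NCAPH the groups do not overlap, at 94.8 and 97 CPM against 93.1, 88.9 and 92.9 CPM.

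Counted over all members, the groups did not overlap with H3F3A siRNA lower in 12 (24%) and higher in 5 (10%), beside 17.1% and 16% of all genes tested. The 5 higher ones were TTK, NEK2, MAD2L1, PTTG1 and NDC80.

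The size and sign of a member's difference followed its GC content. The members had a median transcript GC of 43.8%, below the 48.9% of all genes tested with a GC value. All 12 members at 50% GC or more had a negative log2 fold change (median -0.11), while 16 of 19 members under 42% GC had a positive one (median 0.045). The 19 members between lay at a median of -0.036. The cuts at 42% and 50% were chosen after the values were seen. Across the 50 members, which share libraries and base composition, the Pearson correlation of log2 fold change with GC was -0.75. It was -0.87 when scrambled replicate 3 was left out, -0.22 when scrambled replicate 1 was left out and -0.083 with GC correction. The difference between the scrambled libraries, replicate 1 over replicate 3, correlated with GC at 0.84 and ran from -0.25 to 0.25 log2 among the members. In the GC-rich members scrambled replicate 1 lay on average 0.14 log2 above the average library, and in the GC-poor members at -0.091, while scrambled replicate 3 lay at 0.0099 and 0.033.

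The calls depended on which control library was kept. With 1 scrambled library left, the spread comes from the H3F3A siRNA libraries alone, and the lone control is assumed to vary as they do. Without scrambled replicate 3, CDC20 (log2 fold change -0.34, adjusted p = 0.00291), TACC3 (-0.27, adjusted p = 0.0101), AURKB (-0.25, adjusted p = 0.0175) and PLK1 (-0.23, adjusted p = 0.0299) were called lower by edgeR, and TTK (0.25, adjusted p = 0.043) and CENPE (0.25, adjusted p = 0.0391) higher. These are 4 and 2 of 50 members, beside 10.6% of all genes lower and 4.54% higher in that comparison. Of the members, 24 lay below 0, and their median of 0.011 was close to the 0.0096 of all genes. The 4 lower genes have 55.6% to 57.9% GC and the 2 higher ones 40.8% and 35.3%. Without scrambled replicate 1 edgeR called 0 members (smallest adjusted p = 0.498, with 1 lower and 0 higher at an unadjusted p under 0.05), beside 0.501% of all genes lower and 0.122% higher, and 36 members lay below 0, beside 49.2% of all genes, with medians of -0.049 and 0.0028. The log2 fold changes were then -0.096 for CDC20, -0.077 for TACC3, -0.13 for AURKB, -0.059 for PLK1, 0.078 for TTK and 0.070 for CENPE.

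**Figure D4:**
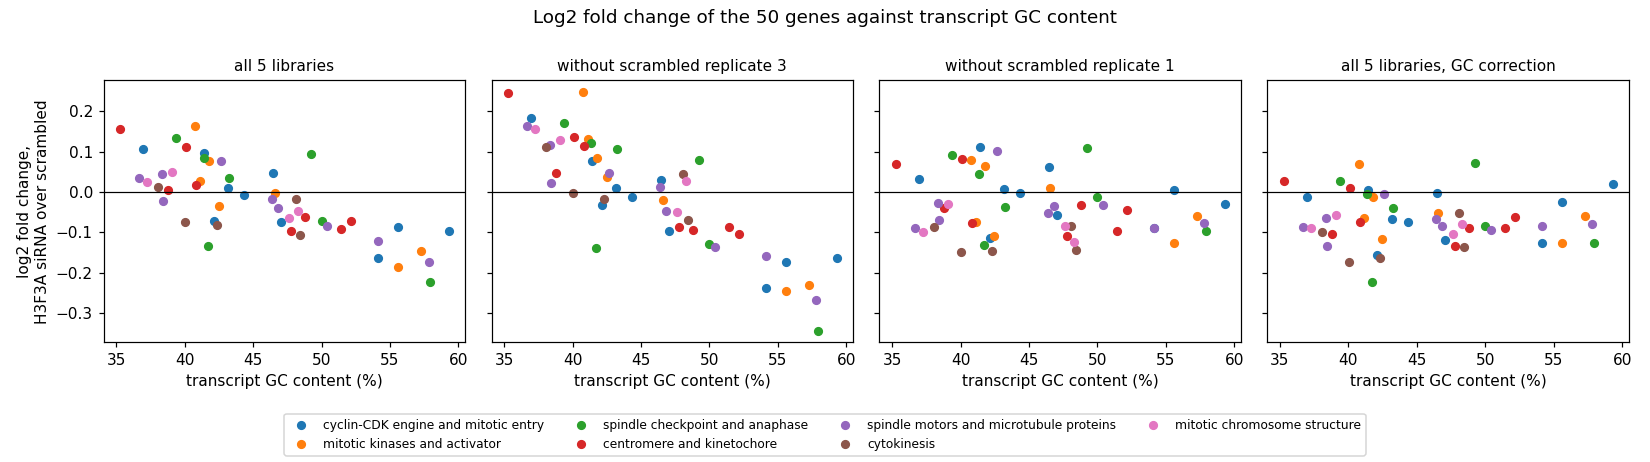
Log2 fold change of the 50 members (H3F3A siRNA over scrambled) against the GC content of the longest coding transcript (percent), with all libraries, without each scrambled library, and with GC correction, coloured by role. The slope is steepest without scrambled replicate 3 (Pearson correlation -0.87) and nearly flat with GC correction (-0.083).

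With each library's GC trend removed, the members lay slightly lower after H3F3A siRNA, and still none was called. The median log2 fold change was -0.077 and 43 of 50 members (86%) lay below 0, beside a median of -0.0073 and 52.3% below 0 over all genes tested. At an unadjusted p under 0.05, 11 members (22%) were lower and 0 higher, against 7.99% and 5% of all genes. After adjustment 0 were lower and 0 higher, against 1.56% and 0.473%. The 11 were CCNA2, CKS1B, AURKB, BUB1, CDC20, SGO1, CENPA, DLGAP5, KIF20A, KIF23 and ANLN, of which 3 are cytokinesis genes. Their log2 fold changes ran from -0.22 for SGO1 to -0.12 for BUB1. By role the medians were -0.046 for the cyclin-CDK engine, -0.059 for the kinases, -0.040 for checkpoint and anaphase, -0.082 for centromere and kinetochore, -0.085 for spindle proteins, -0.14 for cytokinesis and -0.085 for chromosome structure. All 9 spindle proteins, all 5 cytokinesis genes and all 4 chromosome genes lay below 0. When scrambled replicate 1 was also left out, 39 members lay below 0 and the median was -0.071, while 52.5% of all genes lay below 0. That fit rests on 1 scrambled library, so only the size and direction of its differences are given here. With upper-quartile scaling and no GC correction 24 members lay below 0 and the median was 0.0028, beside 43.5% below 0 and a median of 0.030 over all genes. The sign of the members' median thus changed with the scaling, and under both it lay below the median of all genes.

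Per library, the members' mean log2 CPM, as a distance from the average library, was -0.0021 in scrambled replicate 1 and 0.027 in replicate 3, against 0.017, -0.023 and -0.019 in H3F3A siRNA replicates 1, 2 and 3. These groups overlap, since scrambled replicate 1 lay below H3F3A siRNA replicate 1. With GC correction the means were 0.049 and 0.035 against -0.0060, -0.047 and -0.031, and the groups no longer overlap. The corrected means by role kept that order for the kinases (0.030 and 0.031 against -0.0063, -0.039 and -0.017), the kinetochore genes (0.045 and 0.034 against -0.023, -0.045 and -0.010) and the spindle proteins (0.060 and 0.033 against -0.014, -0.044 and -0.035). The order also held for cytokinesis (0.047 and 0.10 against -0.034, -0.065 and -0.052) and for chromosome structure (0.016 and 0.084 against -0.095, -0.012 and 0.0081). For the cyclin-CDK engine the means overlapped, at 0.062 and 0.0060 against 0.032, -0.057 and -0.043. Those of the checkpoint group overlapped too, at 0.059 and 0.0071 against 0.040, -0.055 and -0.050. Without GC correction the means did not overlap for the spindle proteins (0.014 and 0.025 against 0.0075, -0.021 and -0.025). In every other role they overlapped. The uncorrected kinase means were -0.0061 and 0.023 against 0.010, -0.019 and -0.0079. Those of the kinetochore genes were -0.022 and 0.027 against 0.0062, -0.015 and 0.0037. Over all genes tested the corrected means were -0.0011 and -0.0032 against -9.8e-05, 0.0063 and -0.0019. No test was made of these means.

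**Figure D5:**
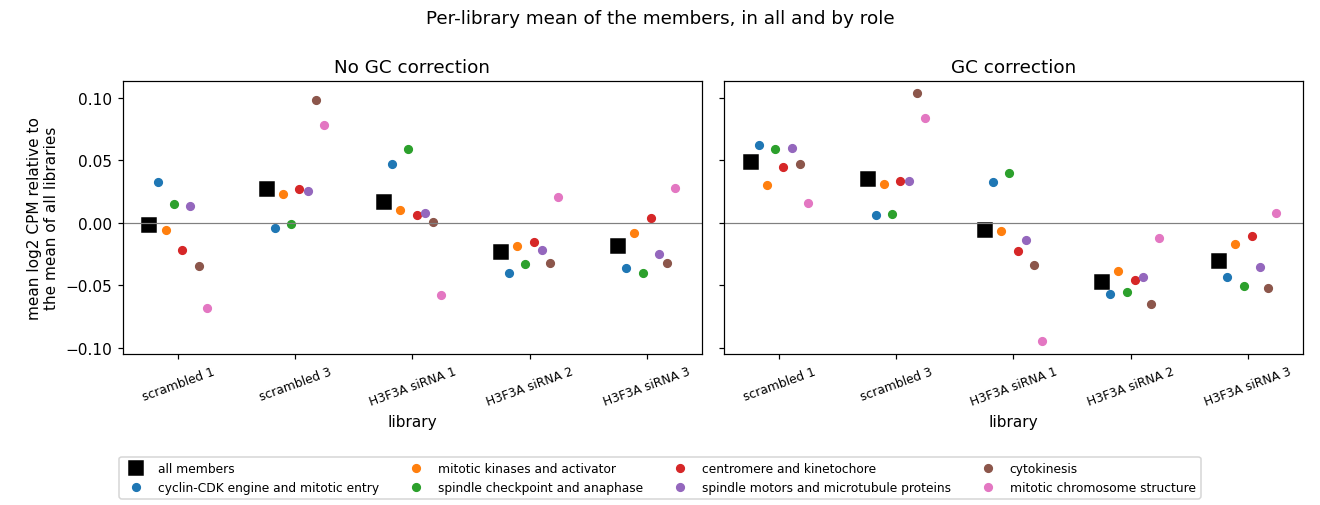
Mean log2 CPM of the members as a distance from the average library, for each of the 5 libraries, in all (black squares) and by role (coloured points), without (left) and with GC correction (right). With correction the squares of the scrambled libraries lie at 0.049 and 0.035 and those of the H3F3A siRNA libraries between -0.047 and -0.0060.

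Among 124 other genes of the mitotic pathway, 121 were tested, and edgeR called 1 lower and 0 higher. Of all genes tested, 2.69% were called lower and 0.504% higher. At an unadjusted p under 0.05, 9 (7.44%) were lower and 5 (4.13%) higher, beside 10.9% and 5.91% of all genes, and the median log2 fold change of the 121 was 0.012. DESeq2 called 2 lower, PKMYT1 and E2F4. By part of the pathway, 0 of 28 centromere and kinetochore genes, 0 of 22 checkpoint and anaphase-promoting complex genes, 1 of 13 kinases and phosphatase regulators, 0 of 28 spindle and cytokinesis genes, 0 of 16 condensin and cohesin genes and 0 of 14 DREAM, MuvB and NF-Y genes were called. With GC correction 1 was lower and 0 higher, beside 1.56% and 0.473% of all genes, and the median was -0.030. At an unadjusted p under 0.05, 12 (9.92%) were then lower and 1 higher, beside 7.99% and 5% of all genes.

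The called gene was PKMYT1, the membrane-bound kinase that inhibits CDK1. It stood at 209 and 150 CPM in scrambled libraries and at 135, 140 and 126 CPM after H3F3A siRNA (log2 fold change -0.43, SE 0.105, adjusted p = 0.0349). Scrambled replicate 1 lay far above the other 4 libraries, and PKMYT1 has 66.2% GC. With GC correction the difference was -0.20 (adjusted p = 0.144), and without scrambled replicate 1 it was -0.17 (adjusted p = 0.428). The call was also lost without H3F3A siRNA replicate 1 (adjusted p = 0.199) or 2 (adjusted p = 0.0531). WEE1, the nuclear kinase with the same target, had the largest positive difference among the 13 kinases and phosphatase regulators, at 115 and 129 CPM against 133, 146 and 144 CPM (log2 fold change 0.21, adjusted p = 0.154), and 0.12 with GC correction. Its GC content is 40.8%.

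With GC correction the called gene was NFYA, the subunit of NF-Y that contacts the CCAAT box. NFYA stood at 54.1 and 60.1 CPM in scrambled libraries and at 46.4, 49.4 and 50.2 CPM after H3F3A siRNA, with no overlap. Its log2 fold change was -0.29 with GC correction (SE 0.061, adjusted p = 0.0189) and -0.23 without it (adjusted p = 0.125). With GC correction and without scrambled replicate 1 it was -0.34 (adjusted p = 0.0559). Without GC correction, E2F4, the DREAM factor of resting cells, lay at -0.26 on the log2 scale (adjusted p = 0.0744 by edgeR), and LIN9, a MuvB subunit, at 0.26 (adjusted p = 0.164). With GC correction they lay at -0.16 and 0.17. FZR1, an activator of the anaphase-promoting complex, lay at -0.28 without GC correction (adjusted p = 0.0759), at -0.089 with it and at -0.10 without scrambled replicate 1. ANAPC4, a subunit of that complex, lay at 0.17 without GC correction and at 0.081 with it. The largest uncorrected differences in the other parts were -0.12 for the passenger protein INCENP and 0.33 for SPC25 among kinetochore genes, -0.18 for HAUS7 and 0.33 for KIF15 among spindle genes, and -0.18 for NCAPH2 and 0.15 for ESCO2 among condensin and cohesin genes. With GC correction these were -0.0035 for INCENP, 0.24 for SPC25, -0.043 for HAUS7, 0.24 for KIF15, -0.012 for NCAPH2 and 0.043 for ESCO2. SPC25 and KIF15 were under 1 CPM, and each has a numbered copy in the tables, which makes their values uncertain.

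Of the 3 genes not tested, STAG2, a subunit of the cohesin ring that holds sister chromatids together, had 2 and 4 counts in scrambled libraries and 2, 3 and 3 counts after H3F3A siRNA. Its paralog STAG1 had 2711 to 3224 counts per library, and the ring subunits SMC1A, SMC3 and RAD21 had 6851 to 7827, 4695 to 5843 and 9083 to 10732 counts. STAG2 has a single row in the tables. The cohesin genes beside it were chosen after its values were seen. SKA1 and ARHGAP11A were listed at 0 in all libraries, and both have numbered copies in the tables, so their values are uncertain. None of the 50 members has a numbered copy.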

How the data were processed

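The deposited tables list 3 raw count columns for every gene, without and for each strand, and the unstranded one was used. Tools listed in the submitters' processing notes, without roles, are STAR 2.5, HTSeq 0.6.1, CASAVA, bcl2fastq and DESeq2, with hg19 as the build. The kit named in the labels' protocols does not mark strand, and reads overlapping another gene are left out of these counts. Summary lines were kept out, and no column was left unused for want of a sample. The test was edgeR 4.0.16 under R 4.3.3 (filterByExpr with a minimum count of 10 and a minimum total of 15, TMM, robust quasi-likelihood fit, no covariates, adjusted p under 0.05 by Benjamini-Hochberg over 15859 genes). CPM are TMM-scaled. Standard errors were derived from the F statistics, and intervals are 95% intervals. GC content and length are those of the longest coding transcript in GENCODE release 29, matched for 14374 of the genes tested and all members. GC correction fitted a natural spline with 5 degrees of freedom per library to log2 CPM centred on the average library (prior count 2) and entered it as an offset. Alternatives were DESeq2 1.42.0, RLE and upper-quartile scaling, other filters, GC correction, a replicate block and leaving out libraries. The code was tested on simulated data. Members, role groups and further lists were chosen with earlier results of these data known. Members named with values in every library were the lowest, highest and most abundant of each role and 13 textbook representatives, 27 in all; others were named after their values were seen. The GC classes and the promoter motifs were also chosen after seeing the data.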

Additional observations from a re-analysis of the deposited data

How the results depend on the processing

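The members had 314 to 23531 counts per library, so counting error was small for most. H3F3A was called lower in all 14 alternatives. Of 378 values of the 27 named members under them, 330 kept direction and side of the threshold, 8 became calls and 40 changed sign without a call, 8 of these with GC correction.

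Over all genes, 639 fell and 153 rose with no filter on low counts, 270 and 43 among genes averaging 5 CPM or more, 247 and 75 with GC correction, and 64 and 17 when scrambled replicate 1 was also left out. Leaving out 1 library gave 9 to 1737 lower and 6 to 744 higher genes, the fewest without H3F3A siRNA replicate 1 and the most without scrambled replicate 3. For the members, it gave 0 to 4 lower and 0 to 2 higher, the calls all without scrambled replicate 3, and a median log2 fold change from -0.049 to 0.011. For the further mitotic genes it gave 0 to 15 lower and 0 to 12 higher, the most without scrambled replicate 3, where 10.6% and 4.54% of all genes were called. The further list had 2 lower with no filter and by DESeq2, and 0 when GC correction went with leaving out scrambled replicate 1. The members' median was 0.0028 with upper-quartile scaling, -0.077 with GC correction and -0.071 when scrambled replicate 1 was also left out. The per-library mean moved to 0.049 in scrambled replicate 1, -0.0060 in H3F3A siRNA replicate 1 and -0.047 in replicate 2 with GC correction.

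The groups share replicate numbers 1 and 3. Deviations from the group mean of same-numbered libraries correlated at 0.112 and 0.0487 across genes, and those of differently numbered libraries at -0.112 to 0.068. With 2 scrambled libraries, their deviations mirror each other, so these values cannot show or exclude pairing. The labels do not say that a number marks a shared culture, so pairing was not assumed. In a fit with a replicate block, H3F3A siRNA replicate 2 has no scrambled partner and adds nothing directly to the differences. The difference and spread of each gene then rest on replicates 1 and 3, so the p-values of these fits are less secure. With the replicate block alone edgeR called 0 members, and 0 at an unadjusted p under 0.05. With the replicate block and GC correction 929 genes were lower and 432 higher (5.86% and 2.72%), with 3 members lower and 0 higher (ANLN, KIF20A and CCNA2), a members' median of -0.068, and 8 further genes lower and 1 higher. PKMYT1 was called lower with the replicate block (log2 fold change -0.45, adjusted p = 0.00127) and with the replicate block and GC correction (-0.21, adjusted p = 4.89e-05). Apart from this fit and the one without scrambled replicate 3, the alternatives called 0 members. The cause of these differences was not tested.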
